A study of Homo sapiens with 12 samples.

Results

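The mitochondrial ribosomal protein genes were taken as all genes whose current symbol is MRPL or MRPS followed by a number, with or without a letter A to C. They numbered 75 of the 19775 genes that had a probe set of their own on the arrays, 48 named MRPL and 27 named MRPS. MRPL53 and MRPS24 carry such symbols too but were measured only by probe sets that also name another gene, and they were left out. Each gene was represented by the probe set that names it alone and has the highest mean over all arrays. The 75 genes had 140 such probe sets in all, 38 genes with 1 and 37 with several. All 75 lay at or above the median probe set, a log2 signal of 1.99, in every group, so no member was lost to low signal. Brightness differs between probes, so the signal of 1 gene is set here only against the signal of the same gene on other arrays.

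Expression was measured on Affymetrix arrays in Rec-1, SP-49 and Mino, established human cell lines from mantle cell lymphoma, which is a cancer of B cells. For 24 h the cells received compound E at 1 µM, an inhibitor of gamma-secretase (GSI), or the solvent DMSO at 0.1% (Mock), and each of the 6 groups had 2 arrays. Gamma-secretase makes the cut that frees the active part of Notch receptors. The comparisons asked which transcripts change when this cut is blocked in each line and how the lines differ. Rec-1 and SP-49 were grown in RPMI with 10% serum and Mino with 15%, and the effects of line and serum on a Mock level cannot be told apart. Each line is 1 culture model, and nothing in the labels says whether the 2 arrays of a group came from separate cultures, so the spread behind the p-values may be technical.

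Mitochondria keep their own ribosome, which translates the few messages of the mitochondrial genome, all for subunits of the respiratory chain and ATP synthase. Its RNA is made inside the organelle, while all of its proteins are encoded in the nucleus, made in the cytosol and imported. Many of these proteins descend from proteins of the bacterial ribosome, and the others were acquired by the mitochondrial lineage. The large subunit joins amino acids and holds the exit tunnel, and the small subunit binds and decodes the message. By knowledge of the structure, 50 members belong to the large subunit and 25 to the small one. MRPS30 and MRPS18A were counted with the large subunit, where they sit despite their names. A bacterial counterpart was listed for 46 members, and 29 were listed as specific to mitochondria.

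HES1, a direct target of Notch, served as a check of the inhibitor. It had log2 signals of 2.23 and 1.70 in Rec-1 GSI against 5.86 and 5.67 in Rec-1 Mock, and of 2.53 and 2.33 in SP-49 GSI against 6.11 and 5.77 in SP-49 Mock. In Mino it lay near the median probe set in both groups, at 1.82 and 1.73 with GSI and 1.69 and 2.002 in Mock. Another HES1 probe set, chosen when probe sets with IDs ending in _x_at or _s_at were left out, changed by 0.23 in Rec-1. Of the markers of mantle cell lymphoma B cells, MS4A1 (CD20) had mean log2 signals of 10.0 to 11.2 in the 3 lines and CCND1 (cyclin D1) 8.42 to 10.6. CD79A, CD79B and PAX5 had 7.50 to 9.54. SOX11 had 4.88 in Rec-1, 8.61 in SP-49 and 7.46 in Mino. CD5 was low at 2.497 in Rec-1 and 2.74 in SP-49, and had 4.20 in Mino. Of the markers of other cell types, the T-cell list had 3 of 4 measured genes at or above the median probe set in Rec-1 (highest CD3D at 4.48) and 1 of 4 in each other line, and the natural killer list had 1 of 4 in every line. Stroma had 3 of 4 in Rec-1 (highest COL1A1 at 3.47) and 2 of 4 in the others, epithelium had 3 of 4 in Rec-1 and SP-49 and 2 of 4 in Mino (highest EPCAM at 4.10), red cells had 1 or 2 of 2 (highest 2.41), and myeloid cells had 0 of 4. The spread of log2 values over probe sets was narrowest on GSI replicate 2 of Rec-1 (SD 1.95) and of SP-49 (SD 1.996), against 2.01 to 2.05 on the other arrays. The 3' minus 5' difference of the GAPDH control probe sets, a sign of RNA quality, was 0.593 and 0.488 in Rec-1 GSI against 0.413 and 0.367 in Rec-1 Mock, 0.345 and 0.444 in SP-49 GSI against 0.350 and 0.336 in SP-49 Mock, and 0.310 and 0.392 in Mino GSI against 0.260 and 0.250 in Mino Mock. The like difference for ACTB was 2.285 and 1.918 in Rec-1 GSI against 1.999 and 1.825 in Rec-1 Mock, 2.302 and 2.163 in SP-49 GSI against 2.294 and 2.357 in SP-49 Mock, and 2.001 and 1.940 in Mino GSI against 1.734 and 1.787 in Mino Mock. The part of RNA quality in the changes below was not tested.

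In Rec-1 many transcripts of mitochondrial ribosomal proteins were lower with the inhibitor. Of the 75 genes, 26 fell and 0 rose, where 3.62% of all genes fell and 2.15% rose (limma, Benjamini-Hochberg adjusted p under 0.05 over all genes). Among the 14470 genes with a group mean at or above the median probe set, as all members have, 4.92% fell. The median log2 change of the 75 genes was -0.37, beside 0.01 for all genes, and 67 of the 75 changes were negative, as were 48.0% of those of all genes. At an unadjusted p under 0.05 the count was 44, where 19.2% of all genes passed. On 65 genes both GSI arrays lay below both Mock arrays, which was so for 22.3% of all genes, and on 4 both lay above, which was so for 22.9%. The fall was on each GSI array, with a median of -0.33 on replicate 1 and -0.43 on replicate 2 against the Mock means, while the median over all genes was within 0.01 of zero on both.

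How many of these falls were called depended on single arrays. Leaving out Mock replicate 2 of Rec-1 left 3 calls, leaving out Mock replicate 1 left 7, and leaving out GSI replicate 2 left 10, with 18 to 24 calls when any other array was left out. MRPL12 and MRPS2 alone kept their call in each of these 12 fits. All 26 genes kept their direction in each, but that outcome was fixed in advance. On all 26 both GSI arrays of Rec-1 lay below both Mock arrays, and arrays of the other lines do not enter this change. With only the Rec-1 arrays in the fit 0 members passed, and without GSI replicate 2 of both Rec-1 and SP-49, the arrays with the narrowest spread, 10 did.

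**Figure D1:**
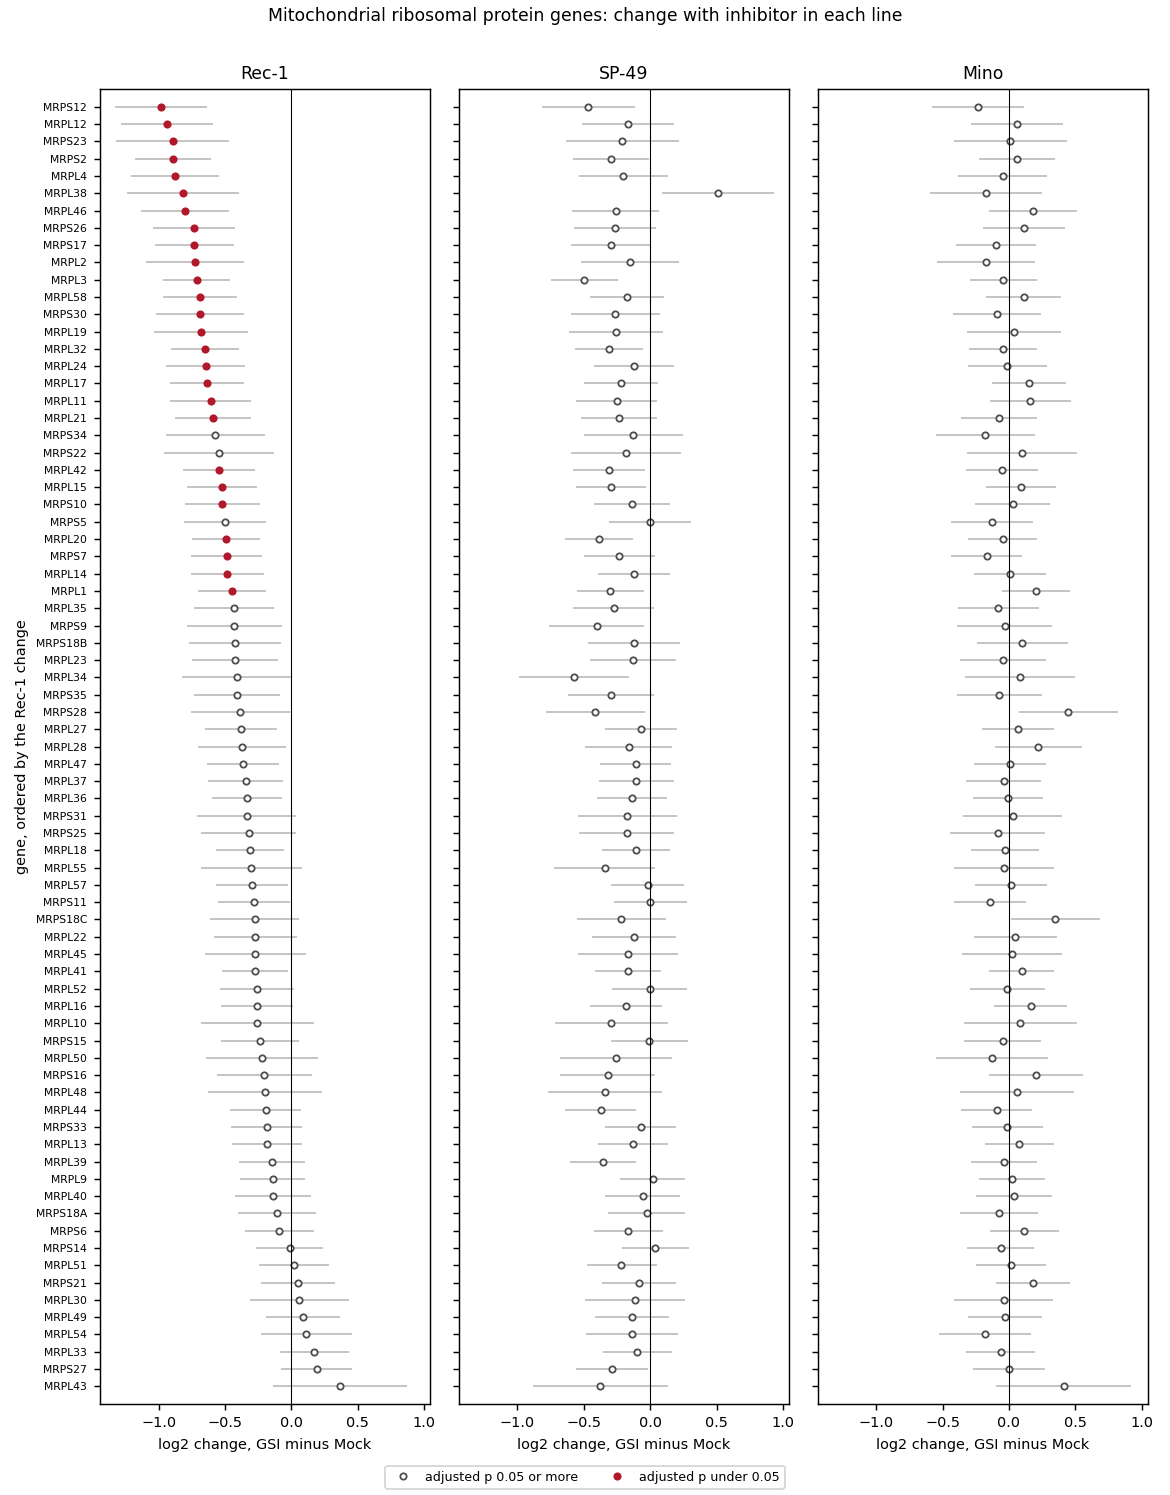
Log2 change, GSI minus Mock, of each of the 75 genes in Rec-1, SP-49 and Mino, from left to right, with 95% intervals of limma. Rows run from the largest fall in Rec-1 at the top, and filled points mark the 26 changes in Rec-1 with an adjusted p under 0.05. Most Rec-1 points lie left of zero (median -0.37), the SP-49 points lie less far left (median -0.18), and the Mino points lie around zero (median 0.00).

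The largest falls were in proteins of both subunits. MRPS12, which sits at the decoding centre of the small subunit, had log2 signals of 6.63 and 6.68 in Rec-1 GSI against 7.51 and 7.76 in Rec-1 Mock. MRPL12, the protein of the flexible stalk that recruits translation factors to the large subunit, had 6.76 and 6.74 with GSI against 7.69 and 7.69 in Mock. For both genes the GSI pair and the Mock pair were well apart. MRPS12 fell by 0.98 on the log2 scale (1.97-fold lower, 95% interval -1.33 to -0.63, adjusted p = 0.00454 by limma), and MRPL12 fell by 0.94 (1.92-fold lower, -1.28 to -0.59, adjusted p = 0.00558). The call for MRPS12 was lost without Mock replicate 2 of Rec-1 (adjusted p = 0.053 by limma).

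MRPS2, a bacterial-type protein of the small subunit, had 6.20 and 6.29 in Rec-1 GSI against 7.19 and 7.08 in Rec-1 Mock. The groups did not overlap, and the change of -0.89 (1.86-fold lower, -1.18 to -0.61) had the smallest adjusted p of the 75 genes, 0.00267 by limma. MRPL4, whose bacterial counterpart lines the wall of the exit tunnel, had 6.82 and 6.71 with GSI against 7.64 and 7.64 in Mock, a change of -0.88 (adjusted p = 0.0064 by limma). Its 2 further probe sets changed by -1.13 and -0.82, so the 3 readings lay on the same side of zero. The MRPL4 call was lost narrowly without either Mock array of Rec-1 (adjusted p up to 0.0526 by limma). MRPL3, another bacterial-type protein of the large subunit, had 8.77 and 8.80 with GSI against 9.56 and 9.43 in Mock, a change of -0.71 (1.64-fold lower, adjusted p = 0.00442 by limma).

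For 2 of the larger falls the size rested on 1 array. MRPS23, a protein of the small subunit specific to mitochondria, had 5.78 and 5.08 in Rec-1 GSI against 6.31 and 6.34 in Rec-1 Mock. Its change of -0.90 became -0.55 without GSI replicate 2 and -1.24 without GSI replicate 1, and its call was lost without GSI replicate 2 or either Mock array (adjusted p = 0.0208 with all arrays, up to 0.118 without them, by limma). Its further, dimmer probe set changed by 0.16. MRPL38, which lies in the central protuberance of the large subunit, had 4.52 and 5.14 with GSI against 5.44 and 5.84 in Mock. Its change of -0.81 (adjusted p = 0.031 by limma) became -0.50 without GSI replicate 1, and the call was lost without that array, Mock replicate 2 of Rec-1 or either Mock array of SP-49.

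**Figure D2:**
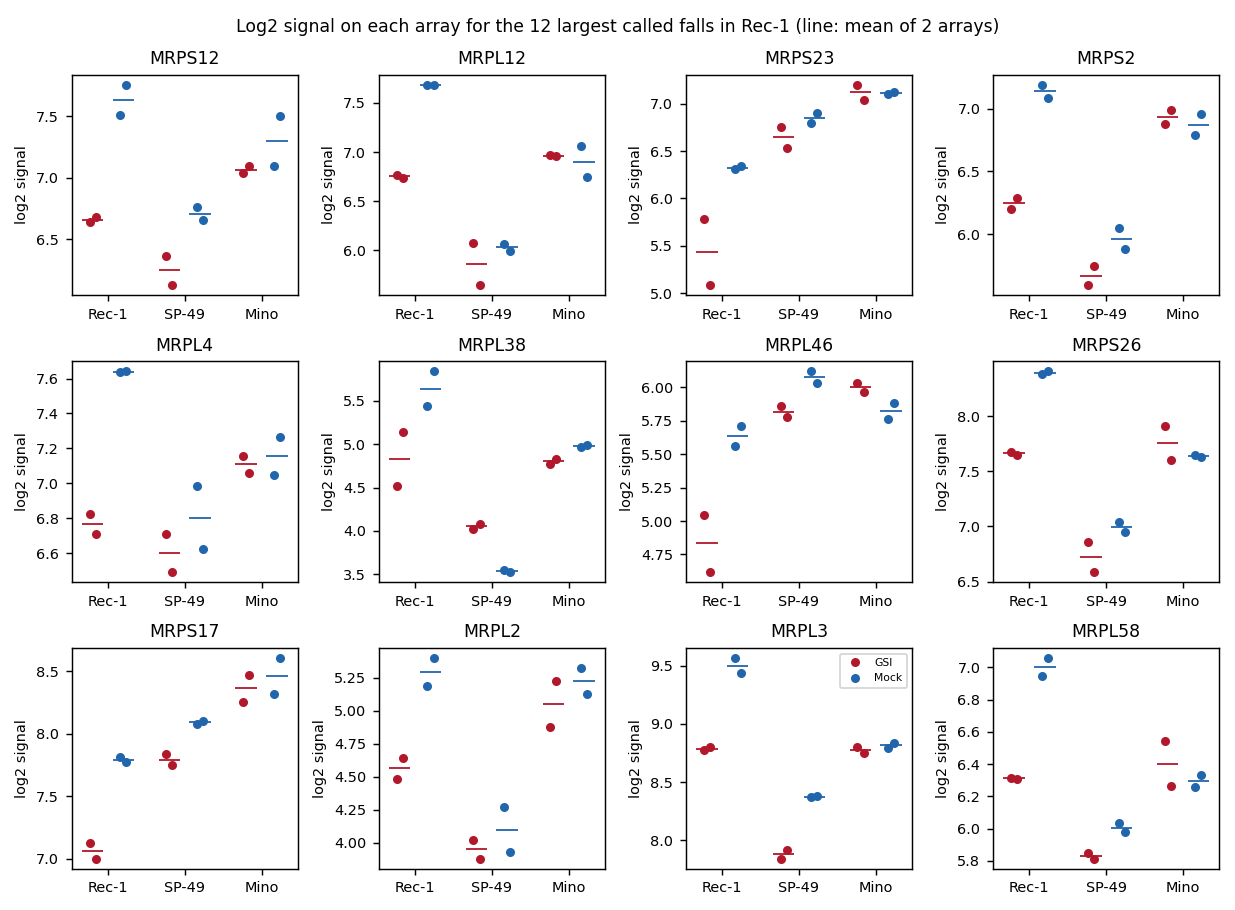
Log2 signal of the 12 genes with the largest called falls in Rec-1, with 1 point per array, GSI in red to the left of Mock in blue within each line, a short line at each mean of 2 arrays, and an axis of its own for each gene. In Rec-1 the red points lie below the blue ones in every panel, which the choice of these genes required. MRPL38 shows the opposite order in SP-49.

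The falls were spread over the parts of the ribosome. In Rec-1, 19 of 50 large-subunit genes fell (median -0.35) and 7 of 25 small-subunit genes (median -0.41). Genes with a bacterial counterpart fell in 19 of 46 cases (median -0.42) and those specific to mitochondria in 7 of 29 (median -0.30), and no test was made of these shares against each other. The central protuberance, the crown of the large subunit that faces the small one, had falls in 3 of 7 genes, which were MRPL38, MRPL46 and MRPL58. Around the tunnel exit, where new chains meet the inner membrane, 2 of 8 genes fell, MRPL17 and MRPL24. The other falls ran from MRPL46, with 5.05 and 4.62 in Rec-1 GSI against 5.56 and 5.71 in Rec-1 Mock (change -0.80, adjusted p = 0.00999 by limma), to MRPL1 at -0.45 (adjusted p = 0.0455).

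MRPL58, a peptidyl-tRNA hydrolase built into the large subunit and also known as ICT1, had 6.32 and 6.31 in Rec-1 GSI against 6.95 and 7.06 in Rec-1 Mock, and fell by 0.69 (1.61-fold lower, adjusted p = 0.00945 by limma). MRPS30, counted with the large subunit, had 6.77 and 6.62 with GSI against 7.39 and 7.38 in Mock, and fell by 0.69 (adjusted p = 0.0237). MRPS26, MRPS17 and MRPL2 each fell by 0.73. Of these, MRPS17 is a bacterial-type protein of the small subunit, and the counterpart of MRPL2 lies close to the peptidyl transferase centre.

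The 2 members with the highest changes in Rec-1 were MRPL43 and MRPS27, and neither passed the test. MRPL43, a mitochondria-specific protein of the large subunit, had 5.87 and 5.22 in Rec-1 GSI against 5.27 and 5.09 in Rec-1 Mock, with overlapping groups and a change of 0.37 (adjusted p = 0.444 by limma). Its 2 further probe sets changed by -0.07 and -0.13. MRPS27 changed by 0.19 (adjusted p = 0.453 by limma). The bacterial protein S18 has 3 relatives in human mitochondria, of which MRPS18A sits in the large subunit. Their changes were -0.43 for MRPS18B, -0.28 for MRPS18C and -0.11 for MRPS18A, with adjusted p of 0.159, 0.369 and 0.73 by limma, and none passed the test. MRPL41 (-0.27, adjusted p = 0.213) and MRPS34 (-0.57, adjusted p = 0.0792) also did not pass, although on both genes each GSI array lay below each Mock array.

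Further probe sets of the same genes gave a second reading. Of the 26 genes that fell, 12 had further probe sets, 20 in number. Of the 15 at or above the median probe set, 14 had a negative change in Rec-1, the exception being that of MRPS23, and of the 5 dimmer ones 4 did. For MRPS12 the 3 others changed by -0.86, -0.34 and -0.04, and their signals were lower than that of the probe set used. Among the 26 probe sets used, 13 have IDs ending in _x_at or _s_at, the mark of probes that may match several transcripts. Leaving out all such probe sets kept 44 members, of which 12 fell, with a median change of -0.34. The share of all genes that fell under that choice is not given here.

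**Figure D3:**
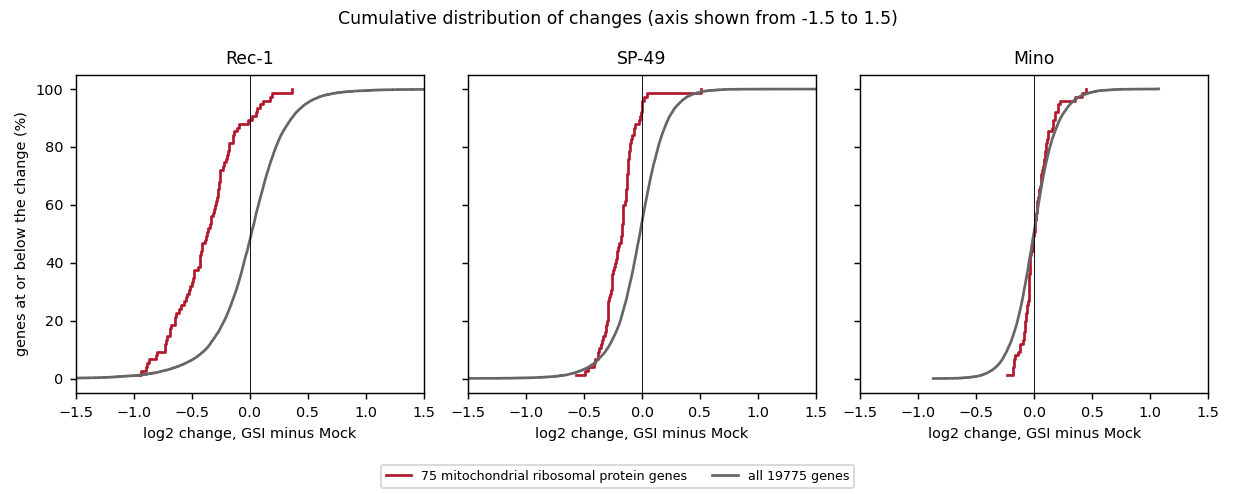
Share of genes, in percent, at or below each log2 change, GSI minus Mock, for the 75 mitochondrial ribosomal protein genes (red) and all 19775 genes (grey) in Rec-1, SP-49 and Mino. The red line lies left of the grey one in Rec-1 (medians -0.37 and 0.01) and in SP-49 (-0.18 and -0.02), and close to it in Mino (0.00 and 0.00).

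In SP-49 most of the 75 changes were negative but small, and none was called. The median log2 change was -0.18, beside -0.02 for all genes and -0.04 for the brighter ones, and 71 of 75 changes were negative, as were 54.2% of those of all genes and 57.9% of those of the brighter ones. By limma 0 of 75 genes passed the test, where 0.172% of all genes fell and 0.0202% rose. The count was 15 at an unadjusted p under 0.05 (8.87% of all genes), and 3 fell with an intensity trend and a robust prior (0.834% of all genes). On 46 genes both GSI arrays lay below both Mock arrays, against 24.4% of all genes. The median against the Mock means was -0.11 on GSI replicate 1 and -0.27 on GSI replicate 2, beside 0.000 and -0.045 over all genes.

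The lowest value in SP-49 was that of MRPL34, a small bacterial-type protein of the large subunit. It had log2 signals of 4.72 and 4.13 in SP-49 GSI against 5.10 and 4.89 in SP-49 Mock, a change of -0.57 with an adjusted p of 0.368 by limma, which became -0.28 without GSI replicate 2. MRPL3 had 7.84 and 7.92 with GSI against 8.37 and 8.38 in Mock, a change of -0.49 with the smallest adjusted p of the 75 genes, 0.148. Its arrays were tightly paired within each group and the groups were far apart relative to that spread. MRPL38 ran the other way, with 4.02 and 4.08 in SP-49 GSI against 3.55 and 3.53 in SP-49 Mock, a change of 0.51 (adjusted p = 0.444 by limma). MRPS14, the member next to it in that direction, changed by 0.04.

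In Mino the genes showed no common shift. The median change was 0.00, as for all genes, and 37 of 75 changes were negative, beside 50.8% of those of all genes. By limma 0 genes passed, where 0% of all genes fell and 0% rose, and 2 had an unadjusted p under 0.05 (4.9% of all genes). Both GSI arrays lay below both Mock arrays for 6 genes (17% of all genes) and above them for 14 (16.2% of all genes). The values furthest from zero were 0.45 for MRPS28, 0.41 for MRPL43, -0.23 for MRPS12 and -0.18 for MRPL54, with adjusted p of 0.953 or more by limma.

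Set side by side, the 26 genes that fell in Rec-1 had a median change of -0.68 in Rec-1, which their choice fixes, of -0.26 in SP-49, where 25 of 26 were negative, and of 0.00 in Mino, where 13 were. The other 49 had medians of -0.27 in Rec-1, of -0.14 in SP-49, where 46 of 49 were negative, and of 0.00 in Mino, where 24 were. The 3 lines share no arrays. MYC, which drives ribosome production in many cells and is a known Notch target in lymphoid cells, had 7.12 and 6.52 in Rec-1 GSI against 8.32 and 8.38 in Rec-1 Mock. In SP-49 it had 5.80 and 5.75 with GSI against 7.33 and 7.32 in Mock, and in Mino 9.86 and 10.04 with GSI against 9.92 and 9.72 in Mock. MYC was thus lower with GSI by 1.53 and 1.55 on the log2 scale in Rec-1 and SP-49 and higher by 0.13 in Mino (adjusted p = 7.54e-04, 0.00565 and 1 by limma), and its part in the members' changes was not tested. The SP-49 call for MYC was lost without GSI replicate 2 or either Mock array of SP-49 (adjusted p up to 0.0885 by limma).

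The difference of the inhibitor effect between lines was tested for each gene. Between Rec-1 and Mino 1 of 75 genes passed, where 0.87% of all genes were lower and 0.561% higher in that contrast, and 33 had an unadjusted p under 0.05 (14.1% of all genes). The gene was MRPS2, which changed by -0.89 in Rec-1 and by 0.06 in Mino, a difference of -0.95 (95% interval -1.36 to -0.55, adjusted p = 0.0314 by limma). That call was kept in 4 of the 12 fits without 1 array. It was lost without any 1 array of Mino or any 1 Mock array of Rec-1 or SP-49, with adjusted p up to 0.124 by limma. The median difference over the 75 genes was -0.37, beside 0.01 for all genes. Between SP-49 and Mino 0 genes passed (0.0405% of all genes lower and 0.00506% higher, 9 members and 7.17% of all genes at an unadjusted p under 0.05, and a median of -0.21). Between Rec-1 and SP-49 0 genes passed as well (0.172% lower and 0.384% higher, 16 members and 11% of all genes at an unadjusted p under 0.05, median -0.20). A larger response in Rec-1 than in SP-49 was therefore not established for any single member by limma.

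Promoters of 67 of the 75 genes were found in the RefSeq table of GRCh38.p14, read here as the 250 bases before each start. Those of MRPS12 and MRPL12 are shown because these genes had the largest falls, and those of MRPL3 and MRPL58 because they carry the motif most common among the members, the core CCGGAAG bound by ETS factors, in capitals on either strand. Bases run 5′ to 3′ toward the start.
MRPS12 (chr19:38930694-38930943, plus strand): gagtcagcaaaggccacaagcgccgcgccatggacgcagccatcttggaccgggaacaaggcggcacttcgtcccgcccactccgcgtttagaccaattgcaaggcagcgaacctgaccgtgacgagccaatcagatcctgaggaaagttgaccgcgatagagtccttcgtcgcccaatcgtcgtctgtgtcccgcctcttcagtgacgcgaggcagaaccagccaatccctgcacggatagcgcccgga
MRPL12 (chr17:81703117-81703366, plus strand): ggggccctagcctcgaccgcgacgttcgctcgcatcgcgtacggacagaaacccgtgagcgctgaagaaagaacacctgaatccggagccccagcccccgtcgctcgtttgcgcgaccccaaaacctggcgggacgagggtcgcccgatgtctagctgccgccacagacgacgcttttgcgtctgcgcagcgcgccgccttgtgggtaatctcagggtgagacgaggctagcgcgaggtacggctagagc
MRPL3 (chr3:131502972-131503221, minus strand): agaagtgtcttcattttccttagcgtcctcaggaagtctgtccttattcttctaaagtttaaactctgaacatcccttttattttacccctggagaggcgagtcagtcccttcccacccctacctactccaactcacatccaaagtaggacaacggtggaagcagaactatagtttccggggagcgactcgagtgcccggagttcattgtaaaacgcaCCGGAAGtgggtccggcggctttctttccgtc
MRPL58 (chr17:75012420-75012669, plus strand): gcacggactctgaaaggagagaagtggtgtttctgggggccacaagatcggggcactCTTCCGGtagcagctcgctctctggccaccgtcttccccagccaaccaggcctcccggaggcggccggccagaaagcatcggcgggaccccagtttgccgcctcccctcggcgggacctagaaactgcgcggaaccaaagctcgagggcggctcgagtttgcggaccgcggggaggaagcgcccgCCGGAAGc
In MRPL3 the core begins 32 bases before the start. MRPL58 holds it 8 bases before the start and, on the other strand, at 193.

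The ETS core CCGGAAG was present on either strand in 22 of 67 members' promoters (32.8%), beside 8.82% of all 27303 promoters and 15.3% of the 10378 promoters of genes at or above the median probe set. It was found in 7 of 23 promoters among the Rec-1 falls (30.4%) and in 15 of 44 others (34.1%). The core AAGATGGCG bound by YY1 was in 3 promoters (4.48%), beside 0.641% of all and 1.04% of the brighter genes. The paired half-site of NRF1, a regulator of nuclear genes for mitochondria, was in 8 (11.9%, beside 5.53% and 10.1%). The E-box CACGTG, which MYC and related factors can bind, was in 6 (8.96%, beside 6.49% and 8.86%), in 0 of 23 promoters of the Rec-1 falls and in 6 of 44 others. TATAAA, the TATA box, was in 2 (2.99%, beside 11.1% and 5.46%). None of these motifs contains another. A match describes letters only, and no binding was measured.

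Other genes of mitochondrial gene expression were taken from lists written from textbook knowledge. In Rec-1, 18 genes of these lists fell and 0 rose, where 3.62% of all genes and 4.92% of the brighter ones fell, and by limma 0 passed in SP-49 and 0 in Mino. Of the 4 measured ribosomal proteins with other symbols, 2 fell (median -0.46). GADD45GIP1, a protein of the large subunit, had 4.86 and 4.88 in Rec-1 GSI against 5.75 and 5.83 in Rec-1 Mock (1.90-fold lower, adjusted p = 0.0259), and PTCD3, of the small subunit, was 1.51-fold lower (adjusted p = 0.0239, both by limma). Of 12 translation factors 1 fell (median -0.39), a count too small to set against that share, and it was the elongation factor GFM1, which had 7.32 and 6.98 with GSI against 7.80 and 7.74 in Mock (1.54-fold lower, adjusted p = 0.0212).

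Among 22 genes of ribosome assembly and ribosomal RNA modification 5 fell (median -0.41). They included TRUB2, a pseudouridine synthase (1.60-fold lower), the RNA methyltransferases MRM1 (1.85-fold) and MRM3 (1.51-fold), and FASTKD2, an RNA-binding protein of the mitochondrial RNA granules (log2 change -0.58). Of 13 genes of mitochondrial transcription and RNA 6 fell (median -0.46). POLRMT, the RNA polymerase of mitochondria, had 5.14 and 4.96 in Rec-1 GSI against 6.10 and 6.19 in Rec-1 Mock (2.14-fold lower, adjusted p = 0.00144 by limma), although the other probe set, chosen when _x_at and _s_at probe sets were left out, changed by 0.28. LRPPRC and SLIRP, which form a complex that stabilises mitochondrial messages, were 1.56-fold and 1.55-fold lower, and MTPAP, the poly(A) polymerase, was 1.73-fold lower, with a change of -0.79 that became -0.50 without GSI replicate 2. Of 8 genes of membrane insertion and quality control 4 fell (median -0.48), namely PHB1, LETM1 and the proteases CLPP and LONP1, by 1.44-fold to 1.70-fold. Of these 4, LONP1 lay nearest the threshold (adjusted p = 0.0437 by limma), and its call was the least stable when 1 array was left out. POLRMT kept its call in all 12 fits without 1 array, and each of the other genes named from these lists lost it in at least 1 such fit.

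Without inhibitor most of these genes differed in level between the lines, most often with Rec-1 above SP-49. Against Mino, Rec-1 Mock cells had 33 members higher and 14 lower, where 12.8% of all genes were higher and 13.3% lower, with a median log2 difference of 0.34 (all genes 0.01). Among the brighter genes 17.2% were higher and 18% lower in that contrast. SP-49 Mock cells had 12 higher and 28 lower than Mino (13.9% and 11.8% of all genes, 18.9% and 15.9% of the brighter ones), with a median of -0.30 (all genes -0.04). Between Rec-1 and SP-49, 43 members were higher in Rec-1 and 8 lower (13.1% and 15.8% of all genes, 17.5% and 21.4% of the brighter ones), with a median of 0.47 (all genes 0.04). These 3 comparisons share arrays, so they are not independent of each other. Arrays outside a comparison do not enter its difference, and called groups mostly lie apart. The direction of a called difference without 1 array was therefore largely fixed in advance. In the fits without 1 array 30 of 47, 22 of 40 and 36 of 51 of these calls were kept in all 12, and all kept their direction. The count of calls for SP-49 against Mino fell to 24 without Mock replicate 2 of SP-49, the 1 array whose omission moved any of the 3 counts by more than 1.5 times.

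**Figure D4:**
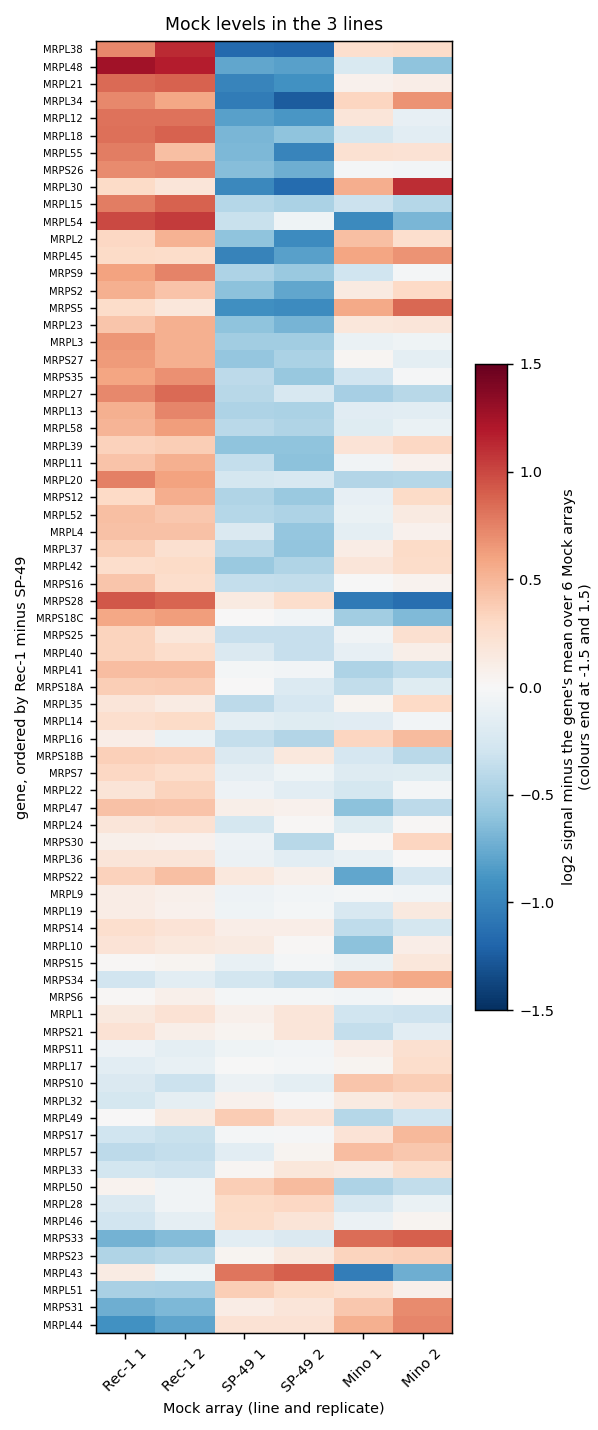
Mock log2 signal of each of the 75 genes on the 6 Mock arrays, as the difference to that gene's mean over these arrays (red higher, blue lower). Genes run from the largest difference of Rec-1 over SP-49 at the top. Red in Rec-1 with blue in SP-49 fills most of the upper rows, and the lowest rows, among them MRPL44, MRPS31, MRPL51 and MRPL43, show the opposite.

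By the same calls, 26 members were higher in Rec-1 than in both other lines (6.52% of all genes) and 5 were lower than in both, MRPL33, MRPL44, MRPL51, MRPS31 and MRPS33 (7.91% of all genes). SP-49 had 2 members above both others, MRPL28 and MRPL43 (8.08%), and 23 below both (5.81%). Mino had 8 above both (5.31%) and 10 below both (5.76%). Another 11 members had no called difference between any lines, but the share of all genes was not counted, so that number cannot be weighed. The order Rec-1, Mino, SP-49 by median Mock signal, 7.55, 7.27 and 7.01, was thus not that of every member.

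MRPS28, a protein of the small subunit, had log2 signals of 8.44 and 8.38 in Rec-1, 7.64 and 7.77 in SP-49 and 6.45 and 6.39 in Mino. The 3 lines were fully apart, with Rec-1 3.99-fold and SP-49 2.45-fold above Mino (adjusted p = 5.2e-06 and 1.45e-04 by limma). MRPL38 spanned the widest gap between Rec-1 and SP-49, with 5.44 and 5.84 against 3.55 and 3.53, a 4.29-fold difference (adjusted p = 6.38e-06). MRPL48, like MRPL38 a protein of the central protuberance, was 4.04-fold higher in Rec-1 than in SP-49, and MRPL21 and MRPL34 were 3.53-fold and 3.48-fold higher. Other members highest in Rec-1 against Mino were MRPL54 (3.56-fold), MRPL48 (3.11-fold) and MRPL27 (2.37-fold).

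SP-49 was lowest for MRPL30, with 5.91 and 5.72 against 7.42 and 7.98 in Mino, a 3.69-fold difference (adjusted p = 7.57e-06 by limma). MRPL34, MRPS5 and MRPL45 were also 2.90-fold to 3.14-fold lower in SP-49 than in Mino. MRPL43 was highest in SP-49, with 5.96 and 6.05 against 4.11 and 4.42 in Mino (3.34-fold, adjusted p = 1.54e-04) and against 5.27 and 5.09 in Rec-1, where Rec-1 was lower by 0.82 on the log2 scale. That last difference became 0.13 in favour of Rec-1 when the mean of its 3 probe sets was used, and its call was lost without Mock replicate 2 of Rec-1 or either Mock array of SP-49. MRPL49 and MRPL50 were 1.58-fold and 1.79-fold higher in SP-49 than in Mino, the call of MRPL50 being lost without Mock replicate 2 of SP-49 (adjusted p = 0.053 by limma).

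Rec-1 was lowest for MRPS33, with 6.94 and 7.005 against 8.50 and 8.56 in Mino (2.93-fold, adjusted p = 2.58e-06 by limma), for MRPL44, a tunnel-exit protein with a ribonuclease III fold (2.80-fold), for MRPS31 (2.40-fold) and, against Mino, for MRPL57 (1.76-fold). Against SP-49, MRPL44, MRPS31 and MRPL51 were 2.09-fold, 1.81-fold and 1.77-fold lower in Rec-1.

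The genes are scattered over the chromosomes, so each was set beside its neighbours, the 10 measured genes on either side in the RefSeq order. Other members were not counted among them, and each gene had 17 to 20 neighbours. The difference of a member between lines and the median of its neighbours had the same sign for 55 of 75 genes in Rec-1 against Mino, for 47 in SP-49 against Mino and for 53 in Rec-1 against SP-49, with Spearman correlations across the 75 genes of 0.61, 0.33 and 0.52. These are descriptions across genes, which are not independent replicates, and members that lie close together share neighbours. No like values were computed over all genes, so these cannot be read as a trait of the members. MRPS31 on chromosome 13 was lower in Rec-1 than in Mino by 1.26 on the log2 scale. Its neighbours had a median difference of -0.87, with 13 of 20 lower and 0 higher (13.3% and 12.8% of all genes). Against SP-49 the neighbours of MRPS31 had a median of -0.76. MRPS28 on chromosome 8 was 3.99-fold higher in Rec-1 than in Mino. Its neighbours had a median of 0.41 with 10 of 20 higher (12.8% of all genes). MRPL30 on chromosome 2, 1.89 lower in SP-49 than in Mino, had a neighbour median of -0.45 with 8 of 20 lower (11.8% of all genes). MRPL43 on chromosome 10 was 1.74 higher in SP-49 than in Mino while its neighbours had a median of -0.07. Copy number was not analysed here.

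**Figure D5:**
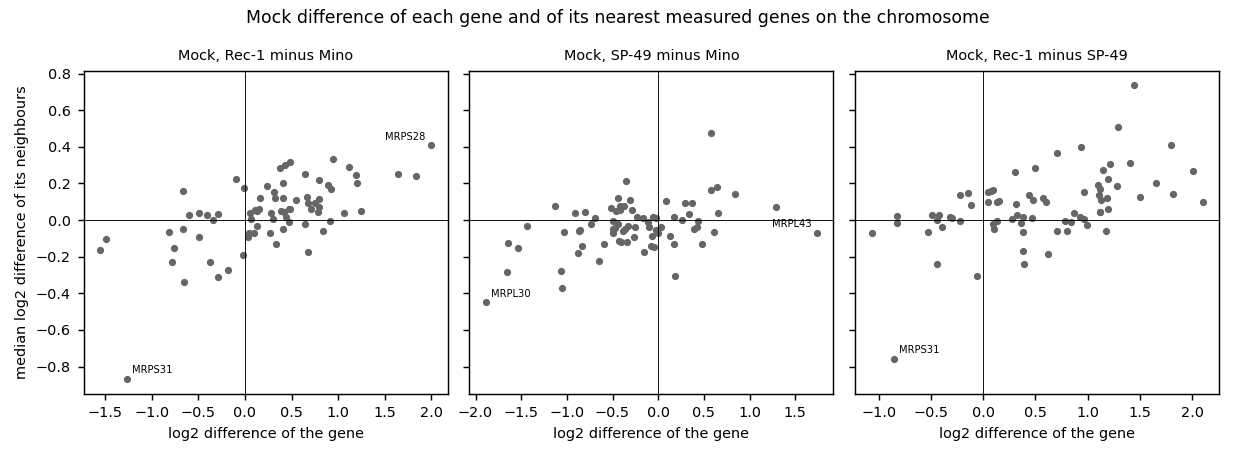
Mock log2 difference between 2 lines for each of the 75 genes (horizontal) and the median difference of its neighbours on the chromosome (vertical). Each gene had 17 to 20 measured neighbours, with other members left out. The panels show Rec-1 minus Mino, SP-49 minus Mino and Rec-1 minus SP-49. MRPS31 lies far below the rest, with neighbour medians of -0.87 and -0.76 in the left and right panels, and the other neighbour medians run up to 0.74.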

How the data were processed

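Total RNA was hybridised to 12 Affymetrix arrays. The deposited values are log2 probe set summaries, made by the authors with RMA and limma per the submitters' processing notes, which give no versions, and base 2 was inferred from their range of 0.58 to 12.78. Of 54675 probe sets, 41097 named 1 gene, 1801 several and 11777 none in the platform annotation, and current symbols were looked up by gene number. A gene took its probe set with the highest mean among those naming it alone.

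A model of 6 group means over all 12 arrays was fitted with limma 3.58.1 in R 4.3.3 (6 residual and 5.22 prior degrees of freedom). P-values are two-sided, with Benjamini-Hochberg adjustment over the 19775 genes of a contrast and a threshold of 0.05, and intervals of 95% are those of single genes. No gene was filtered out. The method was tested on simulated data. The median standard error of a member's change in 1 line was 0.13, and the number of arrays limits the precision.

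The members, lists and tests were chosen with earlier results of these data known. Named genes were up to 12 of the largest called falls or rises per line, with both GSI arrays beyond both Mock arrays. The extremes each way were also named, as were called differences between lines and the 4 largest Mock differences each way. Fixed members of structural interest and up to 4 genes per list were added. Alternatives are given in the closing section. No source used here gives scan dates. The labels do not say whether arrays of a group are separate cultures, and p-values then reflect the spread between these arrays alone.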

Additional observations from a re-analysis of the deposited data

Results flagged for a closer look

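The difference of the inhibitor effect between lines passed the test for MRPS2 between Rec-1 and Mino, at -0.95 on the log2 scale (adjusted p = 0.0314 by limma). It was the only 1 of 75 members to pass (1.33%), close to the 0.87% of all genes that were lower in that contrast. HES1 and MYC had been chosen as checks of the inhibitor, and the test was read for them as well. HES1 passed between Rec-1 and Mino (-3.73, adjusted p = 2.63e-04 by limma) and between SP-49 and Mino (-3.44, adjusted p = 6.28e-04). MYC passed between Rec-1 and Mino (-1.67, adjusted p = 0.0117), a contrast in which 0.87% of all genes were lower and 0.561% higher. The like difference for MYC between SP-49 and Mino was -1.69 with an adjusted p of 0.0564. The HES1 signal lay near the median probe set of 1.99 in both Mino groups (means 1.77 with GSI and 1.84 in Mock) and on the Rec-1 GSI arrays (mean 1.96). A fall in Mino may therefore not have been readable, and the fall in Rec-1 may be understated. No lower limit of signal was estimated, and its part in the HES1 differences between lines was not tested.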

How the results depend on the processing

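The count of 26 genes that fell in Rec-1 ranged from 3 to 24 when 1 array was left out. It was 12 without _x_at and _s_at probe sets (of 44 genes), 17 after quantile normalization was applied again, 0 with only the arrays compared, which leaves 2 residual degrees of freedom, and 10 without the GSI replicate 2 arrays of Rec-1 and SP-49, and it was 21 to 37 under the remaining alternatives other than the replicate block. Same-numbered arrays deviated together little (r = 0.09 in Rec-1, -0.01 in SP-49 and 0.05 in Mino). A low correlation cannot exclude that the numbers pair the arrays, and no source names a pairing. With the number as a replicate block 17 genes fell in Rec-1, 0 passed for Rec-1 against Mino and 1 for Rec-1 against SP-49. In SP-49 the count of 0 became 3 with an intensity trend and a robust prior. For the inhibitor effect in Rec-1 against Mino the count of 1 ranged from 0 to 6 with 1 array left out, reaching 6 without GSI replicate 1 of Rec-1 and 2 without either GSI array of SP-49, and was 7 when probe sets of a gene were averaged, 2 without dim genes, 5 with median centring, 18 with the trend and robust prior, 0 with only the arrays compared and 0 without the arrays of narrowest spread. For Rec-1 against SP-49 the count of 0 became 1 with the trend and robust prior and 1 without those arrays, and ranged from 0 to 1 with 1 array left out, being 1 without either GSI array of Rec-1. Without _x_at and _s_at probe sets, of 44 genes, 25 differed in Mock between Rec-1 and Mino, 17 between SP-49 and Mino and 20 between Rec-1 and SP-49. With 1 array left out these Mock counts were 33 to 48, 24 to 41 and 39 to 52. Of the single genes, 3 values changed sign, to 0.13 for MRPL43 (Mock, Rec-1 minus SP-49, mean of probe sets) and, without _x_at and _s_at probe sets, to 0.28 for POLRMT and 0.23 for HES1 in Rec-1, where another probe set stands for the gene. Over all single-gene values and alternatives 1976 stayed on their side of the threshold or within 1 standard error, 155 lost their call, 7 gained one and 47 moved further. Where no value above shows the cause of a moved count, the cause was not tested. With the trend and robust prior the share of all genes that fell in SP-49 also moved, from 0.172% to 0.834%. For the other alternatives no share of all genes is given here, so a moved count cannot be read as a trait of the members. A median of all genes moved by less than 0.1 under each scaling. Arrays of 2 per group limit what can be called, and a group left with 1 array was assumed to vary like the others.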
